A study of Rattus norvegicus with 9 samples.

Results

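Cultured rat renal artery endothelial cells given calycosin and tanshinone IIA were compared with cells of the Normal group, in 3 libraries a side, which is 6 of the 9 libraries of the series. Libraries were chosen by their labelled condition alone, and genes and long non-coding RNAs (lncRNAs) were compared in separate count tables. The labels describe each group by 1 word or by the 2 compounds: Normal, Model, and Calycosin and Tanshinone IIA, called treated here. All groups shared the cell line, the serum-supplemented medium and the passage range, from 2 to 8. The series title ties the study to angiotensin II, but the labels do not say whether the treated cells also received it, and they give no dose, time or vehicle. A difference between treated and Normal cells can therefore hold the effect of the compounds, of angiotensin II or of both, and these cannot be told apart. The 3 Model libraries entered the fit to share 1 estimate of the spread, and their levels are given as values beside the features named below.

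Endothelial cells line the inside of arteries, where they release nitric oxide and other mediators that set the tone of the vessel and keep the inner surface from binding blood cells. Angiotensin II, the effector peptide of the renin-angiotensin system, constricts arteries and raises the production of reactive oxygen species in their walls. Calycosin, an isoflavone, comes from Astragalus root. Tanshinone IIA, a quinone of the diterpene class, comes from the root of Salvia miltiorrhiza, and both roots are used in traditional Chinese medicine for diseases of the heart and vessels. LncRNAs are long transcripts with no known protein product, some of which regulate the chromatin, splicing or stability of other RNAs. For most lncRNAs in catalogues no function is known.

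The gene table listed 32883 Ensembl rat gene identifiers without symbols, and 0 of them could be matched to a symbol, so no gene is named by function here and the labelled cell type could not be checked against endothelial markers. In units of 1e6 counts, Normal libraries held 12.3 to 13.6 in the gene table. Treated libraries were less even, with 18.3 in library 1, 7.98 in library 2 and 8.15 in library 3. In the lncRNA table, totals in the same units were 1.14 to 1.23 in Normal and 1.58, 0.711 and 0.756 in treated libraries 1, 2 and 3. At these depths 3 counts were worth 0.164 to 0.376 CPM (counts per 1e6 counts of the library) in the treated gene libraries and 1.89 to 4.22 CPM in the treated lncRNA libraries. The typical variation between replicates, the biological coefficient of variation of edgeR, was 8.81% for genes and 32% for lncRNAs. Separate cultures are not named in the labels, so the p-values speak only to the spread among these libraries, which may be technical.

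Many genes differed by small amounts between treated and Normal cells. Of 12756 genes with at least 10 counts in at least 3 of the 6 libraries, 353 passed the test (quasi-likelihood test of edgeR, adjusted p below 0.05 after Benjamini-Hochberg), which is 2.77% of the genes tested. Of these, 193 rose, which is 1.51% of the genes tested, and 160 fell, which is 1.25%. The median fold of the 353 was 1.34, against a median fold in either direction of 1.09 over all genes tested. A change of at least 1.5-fold was seen in 76 of them and of at least 2-fold in 18, 9 higher and 9 lower. The 3 treated libraries lay wholly above or wholly below the 3 Normal libraries in all 353, and in 24.4% of all genes tested (1598 higher and 1520 lower). Before adjustment, 2375 genes (18.6%) had an edgeR p below 0.05. In bulk RNA, fewer cells of a type and less RNA per cell cannot be told apart.

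**Figure D1:**
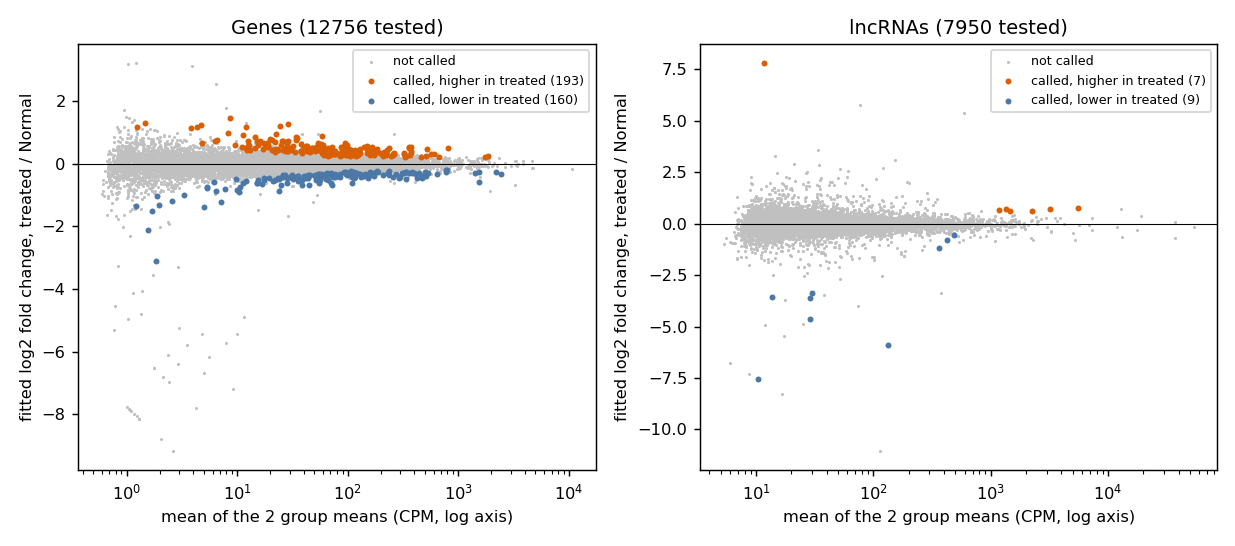
Fitted log2 fold change of treated over Normal against the mean of both group means in CPM (log axis), for genes (left) and lncRNAs (right), 1 point per feature. Called genes form 2 narrow bands close to 0 at medium and high levels, while the called lncRNAs include 6 abundant transcripts with rises under 2-fold and 6 rarer ones with steep falls; grey points far from 0 did not pass the test.

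The gene with the smallest p among those that rose was ENSRNOG00000019500, a gene of 2638 nt as recovered from the authors' FPKM values. Its level was 18.1, 16.3 and 16.8 CPM in Normal libraries 1, 2 and 3 and 42.0, 43.5 and 37.5 CPM in treated libraries 1, 2 and 3. The lowest treated library was 2.07 times the highest Normal library, so the groups were far from overlapping. Means were 17.1 ± 0.925 CPM in Normal and 41.0 ± 3.13 CPM in treated cells (SD, n = 3). This is 1.27 ± 0.11 as a log2 fold change with its SE (edgeR adjusted p = 0.000132). Model libraries, at 15.8, 18.3 and 20.6 CPM, spread around the Normal level. ENSRNOG00000003254 had a steeper rise at a lower level. It stood at 4.77, 4.65 and 4.50 CPM in Normal and at 13.5, 12.1 and 12.7 CPM in treated cells, which is 55 to 64 counts against 97 to 245. The log2 fold change was 1.46 ± 0.14 (edgeR adjusted p = 0.000296), the highest fold among the genes that rose, and Model libraries lay between 4.62 and 6.19 CPM. Per length, the first gene stood at 6.44 ± 0.332 FPKM in Normal and 15.5 ± 1.2 FPKM in treated cells, and the second at 3.00 ± 0.0849 and 8.27 ± 0.415 FPKM.

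Among genes that fell, ENSRNOG00000003357 was abundant. Its level was 1844, 1976 and 1743 CPM in the Normal libraries and 1185, 1242 and 1279 CPM in the treated libraries. All treated libraries lay below all Normal libraries, by a factor of 1.36 between the nearest 2. The log2 fold change was -0.59 ± 0.06 (edgeR adjusted p = 0.000296), from 388 ± 25.4 to 259 ± 10.4 FPKM, and Model stood at 1764 ± 81.9 CPM, nearer to Normal. ENSRNOG00000011750 fell from 30.2, 33.8 and 29.4 CPM in Normal to 18.9, 15.7 and 15.5 CPM in treated cells. Treated library 1 was the highest of its group for this gene and still lay 1.56-fold under the lowest Normal library. Its log2 fold change was -0.88 ± 0.11 (edgeR adjusted p = 0.000852), and Model stood at 29.0 ± 2.35 CPM. These 4 genes kept their call in each of the 20 alternative fits, with edgeR or DESeq2 adjusted p of at most 0.0113.

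**Figure D2:**
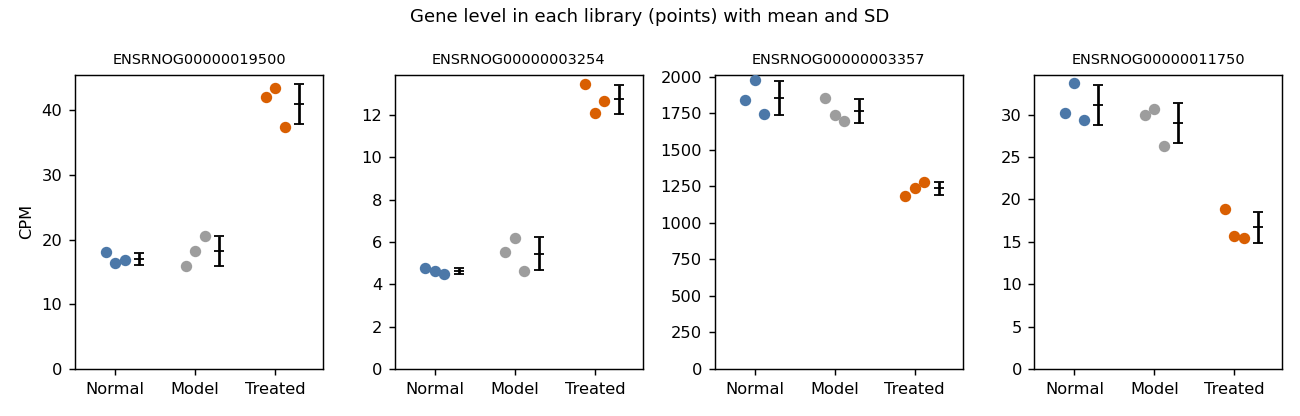
Level in CPM of the 4 named genes in each library (points, libraries 1 to 3 from left to right in each group), with the group mean and SD as a bar beside them (n = 3). Treated libraries stand apart from the Normal and Model libraries in each panel, 37.5 CPM or more for ENSRNOG00000019500 against 20.6 CPM or less.

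Called genes were found at all levels and lengths, but not evenly. Of 5 equal classes by mean level, the lowest held 17 called genes among 2552 and the highest 134 among 2551. Genes that fell had a median length of 3707 nt, genes that rose 2562 nt and all genes tested 2421 nt. Of 5 equal classes by length, the longest (4368 nt and over) held 65 genes that fell and 39 that rose, and the shortest (up to 1290.0 nt) 12 that fell and 28 that rose. With a trend on gene length removed from the fit, 228 genes rose and 151 fell. In sum, genes that rose took 2.08% to 2.22% of the gene counts of a Normal library and 2.72% to 2.78% of a treated library, with 2.27% to 2.34% in Model. Genes that fell took 3.08% to 3.46% in Normal and 2.50% to 2.67% in treated cells, with 2.98% to 3.23% in Model. Since the genes were chosen by the difference between the first and last of these groups, that difference in share is a description.

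How many genes were called depended on single libraries, those of Model included. Instead of 353, leaving out Normal 1 gave 99, Normal 2 gave 177 and Normal 3 gave 688. Leaving out treated library 1 gave 238, library 2 gave 94 and library 3 gave 145. Without Model 1, 2 or 3, which only share the estimate of the spread, 397, 481 and 246 were called. Without Normal 3 more genes fell (371) than rose (317), the reverse of the order in the main fit. The order was also reversed with the replicate number as a block (142 higher, 145 lower) and with libraries thinned to equal depth (161 and 164). DESeq2 called 519 genes, 256 higher and 263 lower, with 345 of the 353 among them. Among called genes the extreme library was not evenly spread. The same counts over all genes tested are not given, so the numbers describe the called genes only. Of the 160 genes that fell, Normal 2 was the highest Normal library in 114 and treated library 3 the lowest treated library in 91. Of the 193 that rose, Normal 2 was the lowest Normal library in 92. The highest treated library was library 3 in 74 and library 2 in 72, so neither of these stood out from the other. A core of 83 genes, 59 higher and 24 lower, was called in every alternative except a test against a minimum fold of 1.2, with folds from 1.25 to 2.76 and a median of 1.45. That test called 33 genes, 26 higher and 7 lower.

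Called genes that changed at least 2-fold mostly had low levels. Their median in Normal was 2.84 CPM for the rises and 2.83 CPM for the falls, against 29.4 CPM over all genes tested. The 9 genes that rose this much stood at 0.769 to 17.1 CPM in Normal and 1.72 to 41.0 CPM in treated cells, with folds of 2.21 to 2.76. The 9 that fell stood at 1.73 to 9.92 CPM in Normal and 0.375 to 4.36 CPM in treated cells, with folds of 2.03 to 8.68, and their smallest single count was 2. Normal 1 was the highest Normal library in 6 of the 9 that fell. Without Normal 1, 4 of the 9 that rose and 0 of the 9 that fell were still called, and without treated library 2 the numbers were 3 and 0. Without Normal 2, 5 of 9 were still called in each direction. DESeq2 called 8 and 7 of them. A further 95 genes had a fitted difference of at least 2-fold and were not called, 26 higher and 69 lower, with a median of 2.09 CPM in the higher group.

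A set of genes was read in Normal cells and not at all in treated cells. Of 32883 genes listed, 75 had 0 counts in all 3 treated libraries and at least 3 counts in every Normal library. The opposite pattern was seen in 2 genes, and 13354 genes had 0 counts in all 6 libraries. The 2 patterns were not equally easy to meet. In units of 1e6 counts, treated libraries 1, 2 and 3 held 18.3, 7.98 and 8.15, against 12.3 to 13.6 in Normal. At lower depth, 0 counts are easier and 3 counts harder to reach. The set was chosen after its values were seen, so no test of it as a set is given. Of these 75, the filter left 10 for the fit, and 0 of the 10 were called (edgeR adjusted p from 0.126 to 0.299, with 7 at an unadjusted edgeR p below 0.05). Taking 3 counts over the treated group as the floor, the 10 were at least 23.2-fold to 60.9-fold lower in treated cells, or at least 12.3-fold to 33.4-fold lower without Normal 1. Choosing genes with 0 treated counts favours low p and large folds, so these values only describe the 10. Their Normal counts were uneven. Summed over the 75 genes, Normal libraries 1, 2 and 3 held 2001, 706 and 504 counts, and Normal 1 was the highest Normal library in 68 genes, with a median of 61.1% of the Normal counts of a gene. The Model libraries were uneven in a like way, with 590, 30 and 64 counts in libraries 1, 2 and 3. Model 1 was the highest Model library in 68 genes, and 51 genes were at 0 in both other Model libraries. Within Normal and within Model, reads of these genes were thus concentrated in library 1, while the absence from the treated libraries was fixed by the choice of genes. What these genes are is not known without symbols.

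**Figure D3:**
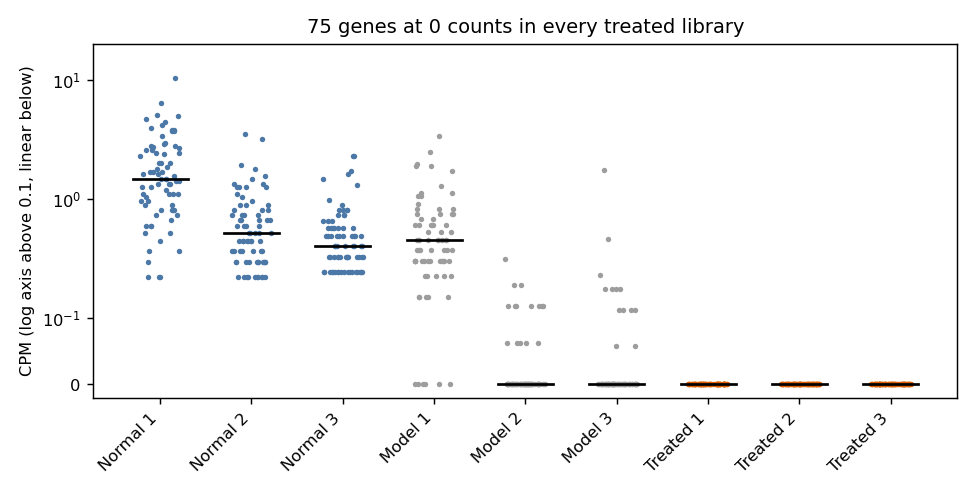
CPM of 75 genes with 0 counts in every treated library and at least 3 in every Normal library, 1 point per gene and library, with the median as a line (axis logarithmic above its lowest marked value and linear below it; horizontal scatter is random). Normal 1 and Model 1 stand above the other libraries of their groups, and Model 2 and Model 3 have medians of 0; the treated values are 0 by the choice of genes.

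Fewer lncRNAs than genes were called, and the median fold of the called ones was 2.01, against 1.34 for called genes. Over all features tested the median fold in either direction was 1.16 for lncRNAs and 1.09 for genes. The lncRNA table had fewer counts and more variation between replicates (32% against 8.81%), so small differences were harder to call in it. Whether this accounts for the larger folds was not tested. Of 7950 tested transcripts, 16 passed the test (edgeR adjusted p below 0.05), which is 0.201%. Of these, 7 rose, 0.0881% of those tested, and 9 fell, 0.113%. The 16 were 13 of 6384 tested transcripts with NONCODE catalogue numbers (NONRATT), 3 of 1303 with numbers in the form that transcript assembly gives (MSTRG), and 0 of 263 Ensembl transcripts. Treated and Normal libraries did not overlap in any of the 16, against 14.2% of all lncRNAs tested. Before adjustment, 569 (7.16%) had an edgeR p below 0.05, and DESeq2 called 33, the 16 among them. The deposited table pairs these transcripts with no gene or position, so no role is given for them, and for those that overlap a gene the counts are uncertain because the strand setting of the counting is not given in the sources used here.

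Among the falls, 6 transcripts dropped to a few counts. NONRATT019335.2 stood at 267, 216 and 296 CPM in Normal libraries 1, 2 and 3 and at 2.61, 7.07 and 3.99 CPM in treated libraries 1, 2 and 3. That is 889 counts over the Normal group against 12 over the treated group, and the lowest Normal library was 30.5 times the highest treated library. The log2 fold change was -5.91 ± 0.30 (edgeR adjusted p = 6.48e-06), the smallest p in the table. The ratio of pooled counts was 64.8, with a 95% interval of 36.9 to 126 that covers counting error only. Model libraries held 222, 304 and 279.5 CPM, of which the highest lay just above the highest Normal library.

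NONRATT000843.2 stood at 53.2, 71.6 and 39.6 CPM in Normal and at 0.651, 4.24 and 2.66 CPM in treated cells, where it had 1, 3 and 2 counts. Its log2 fold change of -4.63 ± 0.46 (edgeR adjusted p = 0.00167) became -3.95 when treated library 1 was left out and -5.24 when treated library 2 was. NONRATT025640.2 had 66, 78 and 41 counts in Normal and 7, 3 and 3 in treated cells, a log2 fold change of -3.61 ± 0.47 (edgeR adjusted p = 0.00710). Its 3 treated libraries were alike at 3.99 to 4.56 CPM, yet the call was lost when any 1 of them was left out (edgeR adjusted p = 0.0822, 0.0821 and 0.0968 without treated library 1, 2 and 3). Both transcripts had Model levels that overlapped Normal, 52.8 ± 8.96 and 49.9 ± 24.2 CPM.

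NONRATT001330.2 and MSTRG.1865.2 were the least abundant of this group in Normal. NONRATT001330.2 had 22, 39 and 25 counts in the Normal libraries and 2 in each treated library, and its log2 fold change was -3.55 ± 0.41 (edgeR adjusted p = 0.00320), or -2.84 when all libraries were thinned to the depth of the smallest. MSTRG.1865.2 had 29, 27 and 15 counts in Normal and 0 in each treated library. With 3 counts over the treated group as the floor it was at least 20.7-fold lower (edgeR adjusted p = 0.00332). The call was lost when libraries were thinned to equal depth (edgeR adjusted p = 0.204). Thinning only removes counts, so the 0 in the treated libraries could not change there. The mean of NONRATT001330.2 was 25.2 ± 8.29 CPM for Normal against 30.6 ± 3.34 CPM for Model. That of MSTRG.1865.2 was 20.6 ± 6.18 CPM for Normal against 27.4 ± 3.69 CPM for Model, so for both the Model libraries resembled Normal more than the treated libraries.

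NONRATT004982.2 differed from the other steep falls in its Model level. Normal libraries held 54.1, 60.1 and 50.4 CPM and treated libraries 3.91, 7.07 and 5.32 CPM, which is 188 counts against 15. The log2 fold change was -3.39 ± 0.29 (edgeR adjusted p = 0.000790). Its Model libraries, at 4.79, 2.78 and 3.65 CPM, were as low as the treated ones. For each of the other 5 steep falls the Model libraries all lay above the treated libraries.

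**Figure D4:**
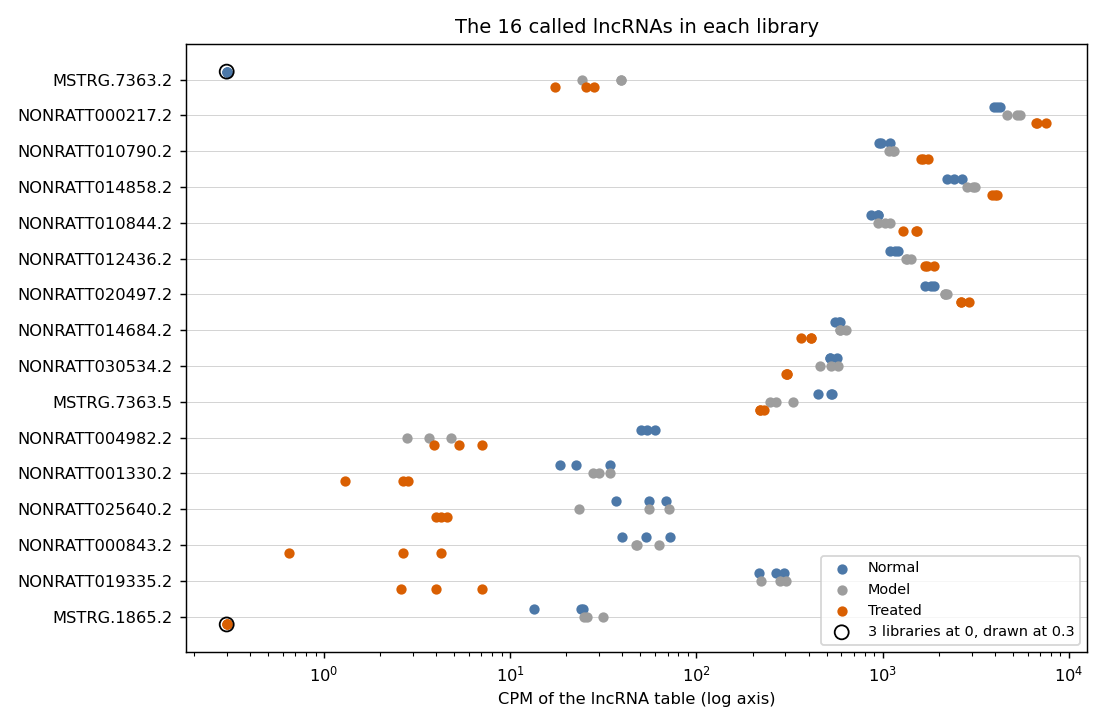
Level in CPM (log axis) of the 16 called lncRNAs in each library, ordered by fitted fold change, 1 point per library. Circled points mark groups with 0 counts in 3 libraries, drawn at the left edge because 0 has no place on a log axis; 6 abundant transcripts rose by less than 2-fold, and the 6 steepest falls end below 8 CPM.

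Abundant lncRNAs made up 6 of the 7 rises, each by less than 2-fold. NONRATT000217.2, the transcript with rank 16 by level in Normal, stood at 4098, 3941 and 4262 CPM there and at 6670.0, 6707 and 7577 CPM in treated cells. The nearest libraries differed 1.56-fold, and the log2 fold change was 0.77 ± 0.07 (edgeR adjusted p = 0.00167). NONRATT014858.2 stood at 2410.0, 2223 and 2656 CPM in Normal and 3850.0, 4025 and 4102 CPM in treated cells (log2 fold change 0.72 ± 0.07, edgeR adjusted p = 0.00189). The other four were NONRATT020497.2 (0.61 ± 0.07), NONRATT012436.2 (0.61 ± 0.07), NONRATT010790.2 (0.73 ± 0.08) and NONRATT010844.2 (0.65 ± 0.09), given as log2 fold changes with SE. Their levels were 919 to 1793 CPM in Normal and 1438 to 2730 CPM in treated cells, and their edgeR adjusted p ran from 0.00189 to 0.0135.

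The coefficient of variation of these 6 transcripts was 3.92% to 8.92% over the Normal libraries and 3.23% to 9.5% over the treated libraries. Over all lncRNAs tested its median was 18% in Normal and 19.8% in treated cells. Over the 100 most abundant in Normal the median was 7.39% in Normal and 7.08% in treated cells, so the spread of the 6 was usual for abundant lncRNAs. Summed, the 6 held 11425, 11056 and 11735 CPM in Normal libraries 1, 2 and 3. The sums were 13228, 14422 and 13788 CPM in the Model libraries and 17969, 18182 and 19585 CPM in treated libraries 1, 2 and 3. The Model sums thus lay above every Normal sum and below every treated sum; no test is given for them, since the 6 were chosen by their rise. Of the 10 most abundant lncRNAs in Normal 0 were called and of the 100 most abundant 4, against 16 of 7950 (0.201%) over all tested. Calls were thus more frequent at high level, although few of the abundant lncRNAs were called. NONRATT010844.2 was the least secure of the 6. It missed the threshold without Normal 1 (edgeR adjusted p = 0.0630), without Normal 3 (0.0919), without treated library 2 (0.101) or without treated library 3 (0.0968), and also without robust settings (0.0609) or with a fold minimum of 1.2 (0.111).

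Modest falls were seen in the remaining 3 transcripts. NONRATT030534.2 stood at 569, 521 and 521 CPM in Normal and at 303, 308 and 305 CPM in treated cells. The coefficient of variation over the treated libraries was 0.796%, which is less than counting error alone gives at their 466, 218 and 229 counts. It is therefore no measure of how well replicates agree. The log2 fold change was -0.81 ± 0.10 (edgeR adjusted p = 0.00367), with Model at 520.4 ± 57.3 CPM. NONRATT014684.2 stood at 554, 580.2 and 588 CPM in Normal and at 365, 414 and 411 CPM in treated cells (log2 fold change -0.53 ± 0.09, edgeR adjusted p = 0.0362), with Model at 604.5 ± 23.8 CPM. It was called in 5 of 20 alternative fits. Without Normal 1, 2 or 3 its edgeR adjusted p was 0.0897, 0.117 and 0.156, without Model 3 it was 0.0932, and without treated library 1, 2 or 3 it was 0.112, 0.115 and 0.101. The third is MSTRG.7363.5, described with its locus.

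The assembled locus MSTRG.7363 gave a transcript that fell and one that rose. MSTRG.7363.5, its main transcript, stood at 450.4, 529 and 534 CPM in Normal and at 229, 220.5 and 219.5 CPM in treated cells. Its log2 fold change was -1.18 ± 0.13 (edgeR adjusted p = 0.00189), and Model stood at 282 ± 44.0 CPM. MSTRG.7363.2 had 0 counts in each Normal library and 43, 18 and 13 counts in treated libraries 1, 2 and 3. With 3 counts over the Normal group as the floor it was at least 28.2-fold higher in treated cells (edgeR adjusted p = 0.00231). Model libraries also held it, with 41, 35 and 54 counts.

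Other transcripts of that locus switched between libraries of 1 group. MSTRG.7363.1 had 0, 136 and 124 counts in Normal libraries 1, 2 and 3 and 0, 1 and 61 in the treated libraries. MSTRG.7363.3 had 117, 0 and 45 counts in Normal and 0, 30 and 14 in treated cells, and neither was called (edgeR adjusted p = 0.947 and 0.943). MSTRG.7363.6 held 170 counts in treated library 1 and 1 count in each of the other treated libraries. How the authors' counting divided reads among transcripts of 1 locus is not given in the sources used here. The counts of single transcripts are therefore less certain than their sum. The sum over the 6 transcripts was 597, 671 and 752 CPM in Normal and 379, 307 and 370 CPM in treated cells, without overlap. Means were 674 ± 77.4 and 352 ± 39.3 CPM (SD, n = 3), given without a test because the locus was chosen for its called transcripts. Model libraries summed to 375, 521 and 463 CPM. MSTRG.7363.5 held 71.1% to 78.8% of the locus counts in Normal and 59.4% to 71.9% in treated libraries, while MSTRG.7363.2 held 4.68% to 8.29% in treated libraries and none in Normal.

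MSTRG.1865, the other assembled locus with a call, held 2 transcripts. MSTRG.1865.1, the more abundant, stood at 71.0, 71.6 and 73.8 CPM in Normal and at 76.2, 86.2 and 66.5 CPM in treated cells, groups that overlapped (edgeR adjusted p = 0.974). MSTRG.1865.2 took 25.7%, 25% and 15.5% of the locus counts in Normal libraries and 0% in each treated library. The locus sum was 92.8 ± 4.75 CPM in Normal and 76.3 ± 9.87 CPM in treated cells (SD, n = 3), 1.22-fold lower and likewise given without a test.

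**Figure D5:**
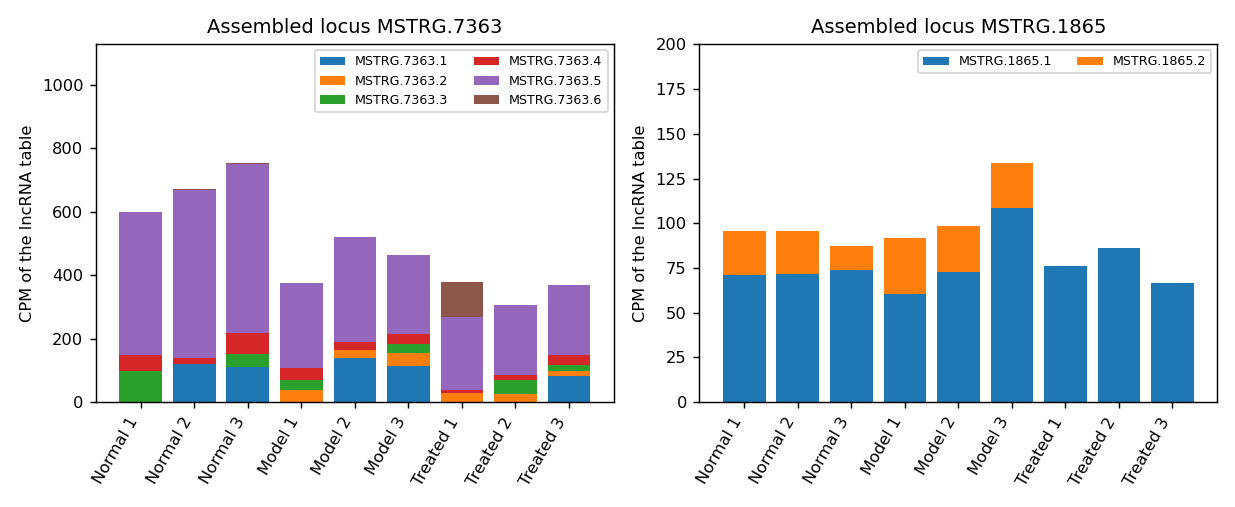
CPM of each transcript, stacked, at the 2 assembled loci with called transcripts, in each library. At MSTRG.7363 the sum is lower in treated than in Normal libraries and single transcripts come and go within groups; at MSTRG.1865 the second transcript has no counts in the treated libraries.

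Switching of single lncRNAs within a group was common in the table as a whole. Among lncRNAs that reached 50 CPM in at least 1 treated library, 172 of 3241 (5.31%) differed at least 10-fold between the highest and the lowest treated library, with lower values raised to the CPM of 3 counts in the smallest library. In Normal 143 of 3180 (4.50%) did, and between the 2 group means 11 of 2990 (0.368%), of which 4 were called. A ratio of group means evens out single libraries, so its share is not comparable with the shares within a group. None of the lncRNAs that switched within treated or Normal cells was called, against 0.201% of all lncRNAs tested. So wide a spread among replicates makes a call unlikely in any case. Genes rarely switched within a group by the same rule, with 2 of 4827 in treated cells and 2 of 4806 in Normal. These shares are not like for like with those of lncRNAs, because 50 CPM stands for many more counts of a gene. Treated library 2 held 7.98 for genes and 0.711 for lncRNAs, in units of 1e6 counts. The lncRNAs were also counted as single transcripts, and the genes by gene identifier. Whether genes switch less often at equal counts was not tested. A further 292 lncRNAs had a fitted difference of at least 2-fold without passing the test, 151 higher and 141 lower in treated cells.

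The 6 lncRNAs with the smallest p outside the threshold had an edgeR adjusted p of 0.0675 to 0.0894. NONRATT008384.2, the next by p, also had 0.0894. Of the 6, 2 are given here, chosen after their values were seen. NONRATT010334.2 had 40.6, 46.9 and 43.2 CPM in Normal and 105, 97.5 and 128 CPM in treated cells, and 62.2, 124 and 122 CPM in Model. NONRATT021697.2 had 500.3, 504 and 502 CPM in Normal against 379.6, 358 and 354 CPM in treated cells, with 529, 501 and 489 CPM in Model. Neither overlapped between treated and Normal libraries, and their log2 differences were 1.34 ± 0.25 and -0.46 ± 0.08.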

How the data were processed

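RNA of 9 libraries, 3 each of Normal, Model and treated cells, was made into strand-specific total RNA libraries, per the labels' protocols. Per the file headers, the authors deposited whole-number read counts and FPKM values, 1 table for genes and another for lncRNAs. Per the submitters' processing notes, CASAVA 1.8 was used and the genome build was mRatBN7.2. Which aligner, annotation, counting program and strand setting were used is not given in the sources used here.

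Counts entered all tests. The deposited FPKM values were used for levels per length and, as counts over FPKM, for gene lengths. Both tables were fitted separately in edgeR 4.0.16 (R 4.3.3; TMM factors, robust quasi-likelihood fit of all 9 libraries, group as the only term) over features with at least 10 counts in at least 3 of the 6 Normal and treated libraries. This kept 12756 of 32883 genes (99.9% of the counts) and 7950 of 16814 lncRNAs (97% of the counts). A feature was called when its p, adjusted within its table by Benjamini-Hochberg, was below 0.05. CPM values are per 1e6 counts of the features kept, with TMM-scaled library sizes, except the CPM worth of 3 counts and sums over genes at 0, which use library totals. The SE of a log2 fold change is its size over the square root of the F statistic. Intervals and floors cover counting error only. Replicate pairs differed beyond sampling noise in all 3 groups (chi-square per degree of freedom 4.77 to 15.1 for genes and 7.01 to 10.4 for lncRNAs), so each library counts once.

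The gene reference used for names (47357 genes) holds 0 Ensembl identifiers, so 34 pathway lists and 7 marker lists could not be scored. Named are therefore the 2 genes higher and 2 lower with the smallest p, and every called lncRNA. The members, lists and tests were chosen with earlier results of these data known. Alternatives, 20 per table, were DESeq2 1.42.0, upper-quartile factors, 3 other filters, the 6 libraries alone, a replicate block, no robust settings, equal depth by thinning, removal of a length trend, a fold minimum of 1.2 and leaving out each library.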

Additional observations from a re-analysis of the deposited data

How the results depend on the processing

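No called gene or lncRNA took the opposite sign in any of the 20 alternatives per table. The 353 genes became 33 with a fold minimum of 1.2 and 94 to 688 when 1 library was left out; under the other 10 settings with all 9 or all 6 libraries the count stayed within 1.5 times. The 16 lncRNAs became 33 in DESeq2 and 14 to 21 when 1 library was left out, and 12 to 21 under the other 10 settings. Of the 16, 9 were called in every alternative but the fold minimum, and others were not tested when 50 counts were required. The replicate numbers were not found to pair treated with Normal libraries: deviations of same-numbered treated and Normal libraries correlated at -0.00837, -0.0039 and 0.0361 across genes and at -0.0698, -0.0577 and 0.0047 across lncRNAs, and not every library correlated best with its own number. Between Model and Normal the same values were 0.249, -0.0042 and 0.0964 across genes, so libraries 1 of these groups deviated together, as in the 75 genes at 0 in treated cells. Between treated and Model they were 0.12, 0.114 and -0.0166. With the replicate number as a block (replicate block), 287 genes and 16 lncRNAs were called, 238 and 15 of them shared with the calls without it. In treated libraries 2 and 3, 3 counts are worth 0.376 and 0.368 CPM for a gene and 4.22 and 3.97 CPM for a lncRNA. Levels below these rest on fewer than 3 counts in those libraries. The cause of each change in number was not tested.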
